A study of Mus musculus with 912 samples.

Results

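The axon guidance ligands and receptors comprised 75 of the 42802 genes in the count tables. Membership was decided by gene symbol alone, with no measured value used. The symbols taken were those with the prefix Sema, Plxn, Efna, Efnb, Robo or Unc5, the numbered Epha and Ephb genes, and Slit1, Slit2, Slit3, Ntn1, Ntn4, Ntng1, Ntng2, Dcc, Neo1, Nrp1 and Nrp2. Ntn3 was also looked for, matched no row and was not analysed here. By role the members fell into 7 secreted semaphorins, 13 membrane semaphorins, 9 plexins, 2 neuropilins, 9 EphA receptors, 5 EphB receptors, 5 ephrin-As, 3 ephrin-Bs, 3 Slits, 4 Robos, 2 netrins, 2 netrin-Gs and 6 netrin receptors. The prefixes also drew in 3 antisense RNAs of the Plxna4 locus, whose reads cannot be told apart from those of the gene without strand, and Unc50 and Unc5cl, which are not counted as netrin receptors here.

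Single nuclei were sorted from the hippocampus of wild-type female C57BL6 mice aged 7.75 to 9 weeks, and the RNA of each nucleus was made into its own SmartSeq2 library, a full-length cDNA method. In the first experiment (360 nuclei), mice stayed in the home cage (HC) or were collected 1 h after 15 min in an environment new to them (NE). Nuclei were gated on NEUN, PROX1, CTIP2 and FOS protein. The authors' cell type labels name dentate gyrus granule cells (DG), CA1, CA3, subiculum (Sub), VIP interneurons and a few Ivy, Pvalb and thalamus (Th) nuclei. In the second experiment (552 nuclei), DG nuclei were gated on PROX1, CTIP2, ARC and FOS without NEUN. They were collected 4 h or 5 h after the NE, or 1 h after a second exposure that followed the first by 4 h and was to the same environment (A > A) or to a different one (A > C). No transgene or genetic label was used, so activity was read from FOS or ARC protein alone, and all nuclei of the second experiment were ARC+.

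The nuclei passing the thresholds of the study numbered 818 of 912, and 783 remained once FOS− nuclei of the HC and 1 h groups with an Arc level above 2.5 were left out. Their total counts ranged from 142275 to 5885216 per nucleus, with a median of 1251690. Counts were summed over the nuclei of each mouse in each group, which gave 61 sums of at least 2 nuclei. The tests below compare these sums. The main fits had no term for the mouse, so sums of the same mouse were treated as independent. DG was represented by 2 HC mice, 1 mouse at 1 h that supplied both FOS groups, 2 mice at 4 h, 4 at 5 h, 6 in each A > A group and 2 in each A > C group. In the comparison of cell types, FOS− sums came from 3 DG, 6 CA1, 5 VIP, 5 Sub and 3 CA3 mice. These were not all separate animals: 1 h mice 2 and 4 and HC mouse 4 gave both VIP and CA1 sums. Sub and CA3 also shared mice with CA1. The 3 DG mice gave no sum of another cell type, so cell type and mouse cannot be told apart in the comparisons with DG. Fos mRNA followed the gate in DG at 1 h, at 3.84 in FOS+ nuclei and 0.33 in FOS− nuclei on the log2(TPM+1) scale, whereas the A > A groups overlapped, at 0.45 to 5.34 in FOS+ mice and 0.13 to 1.49 in FOS− mice.

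Several sums stood apart from others of their label. The VIP sum of 1 h mouse 2 held 2 FOS− nuclei, and its 6 VIP markers added up to 7.33, against 26.33 to 34.70 in the other VIP sums, while its GABAergic markers, at 36.57, lay within the range of the others. The CA1 sum of HC mouse 4 (4 nuclei) had the highest oligodendrocyte marker sum of all 61, at 21.75, and the second highest was 14.27. CA1 markers in the 9 CA1 sums ranged from 3.30 to 26.69. In 3 of these sums the 6 CA3 markers added up to more than the 6 CA1 markers, at 10.75 against 3.30 (1 h FOS+, mouse 4), 11.46 against 8.89 (1 h FOS+, mouse 10) and 10.03 against 9.34 (1 h FOS−, mouse 4). By the labels, the VIP nuclei of 1 h mouse 2 were sorted as PROX1−CTIP2+, the gate of the study for CA1. The CA1 nuclei of HC mouse 4 and the FOS− ones of 1 h mouse 4 were sorted as PROX1−CTIP2−. The study describes that gate as holding CA3, CA2 and interneurons. The part of the gate in these marker sums was not tested. Sub markers in the 8 Sub sums ranged from 6.78 to 19.72, which overlapped the 8.59 to 14.31 of Sub markers in VIP sums, so the Sub label was not set apart by its 6 markers. The DG 5 h sums of mouse 22 (10 nuclei) and mouse 23 (6 nuclei) had glutamatergic marker sums of 6.62 and 9.07. Every other DG sum was at 14.36 or above. The DG marker sum of mouse 22, at 11.91, was the lowest in DG. The nuclei labelled Th, for thalamus, had a GABAergic marker sum of 1.32 and a glutamatergic one of 20.45. Called members that rest on the first 2 sums are given with and without those mice, and those that rest on the 3 CA1 sums also without them. Differences that were not called, and calls of pathway partners, were not all given in this way.

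Axon guidance molecules are cues and receptors that growing axons use to find their targets, and many of them remain in the adult hippocampus, where they act on spines, synapses and the sorting of inputs to different layers. Semaphorins signal through plexins, and the secreted class 3 semaphorins also need a neuropilin as co-receptor. Ephrins are bound to the membrane and signal to Eph receptor tyrosine kinases on the neighbouring cell, with signals passing in both directions. Slits are secreted repellents read by Robo receptors. Netrins attract through Dcc and repel through Unc5 receptors, and the membrane-anchored netrin-Gs instead bind synaptic adhesion partners.

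The promoters of 3 members are shown because Epha7 was the member that passed the test in activated DG nuclei, Nrp2 is described beside it below, and Epha2 was the sole member, of those matched, with a cAMP response element in its promoter. Each sequence is the part of the RefSeq promoter window, on GRCm38.p6 and the plus strand, that lies before both the RefSeq start and the GENCODE gene start, so the Nrp2 stretch ends at the GENCODE start and the Epha2 stretch at the RefSeq start, upstream of the GENCODE one.
Epha7, chr4:28812881-28813130: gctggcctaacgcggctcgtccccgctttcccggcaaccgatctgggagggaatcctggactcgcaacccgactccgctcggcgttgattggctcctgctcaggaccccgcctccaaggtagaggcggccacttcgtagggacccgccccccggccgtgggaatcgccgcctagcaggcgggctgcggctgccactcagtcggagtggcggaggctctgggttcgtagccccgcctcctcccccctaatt
Nrp2, chr1:62703067-62703284: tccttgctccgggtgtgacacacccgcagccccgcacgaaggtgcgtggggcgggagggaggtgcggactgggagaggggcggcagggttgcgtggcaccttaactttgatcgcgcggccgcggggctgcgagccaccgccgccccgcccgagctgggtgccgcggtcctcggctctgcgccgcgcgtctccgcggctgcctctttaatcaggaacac
Epha2, chr4:141300971-141301220: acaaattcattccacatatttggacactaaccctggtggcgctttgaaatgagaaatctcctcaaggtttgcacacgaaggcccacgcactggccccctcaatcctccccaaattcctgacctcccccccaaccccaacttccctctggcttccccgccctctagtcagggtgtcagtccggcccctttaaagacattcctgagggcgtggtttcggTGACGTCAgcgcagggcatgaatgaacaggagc
Capitals mark the cAMP response element, TGACGTCA, which lay 45 to 52 bases before the GENCODE start of Epha2. A promoter entry was matched for 62 of the 75 members, giving 78 promoters. The AP-1 motif, TGANTCA, searched on both strands, was present in 3 of the 78 (Sema4c, Sema4d and Sema6b) and in 7.81% of all 32851 promoters, while the cAMP response element was present in 1 of the 78 and in 1.79% of all. Neither motif was found in the windows of Epha7 and Nrp2, whose GC content was 69.2% and 72.5%.

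To ask how guidance genes were divided among hippocampal cell types, FOS− nuclei of HC and 1 h mice were compared. Levels are given per mouse as the mean log2(TPM+1) over its nuclei, a scale that accounts for transcript length, and fold changes come from the summed counts. Of the 75 members, 56 reached a mean of 1 in at least one of the 8 cell types, and 19 stayed below 1 in all 8, among them Ntn4, Efnb1, Sema3b and Plxnb1. Members at a mean of 1 or more numbered 45 in Sub, 42 in CA1, 42 in CA3, 38 in VIP and 35 in DG. In the 5 types with most nuclei, 27 members had their highest mean in CA3 and 7 in DG, where CA3 was represented by 12 nuclei of 3 mice. The median number of genes detected per FOS− nucleus was 7743.5 (1 h) and 8624.0 (HC) in CA3. In DG it was 6209.0 and 5660.0. The same counts were not made over all genes, so these numbers are not results about the members.

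**Figure D1:**
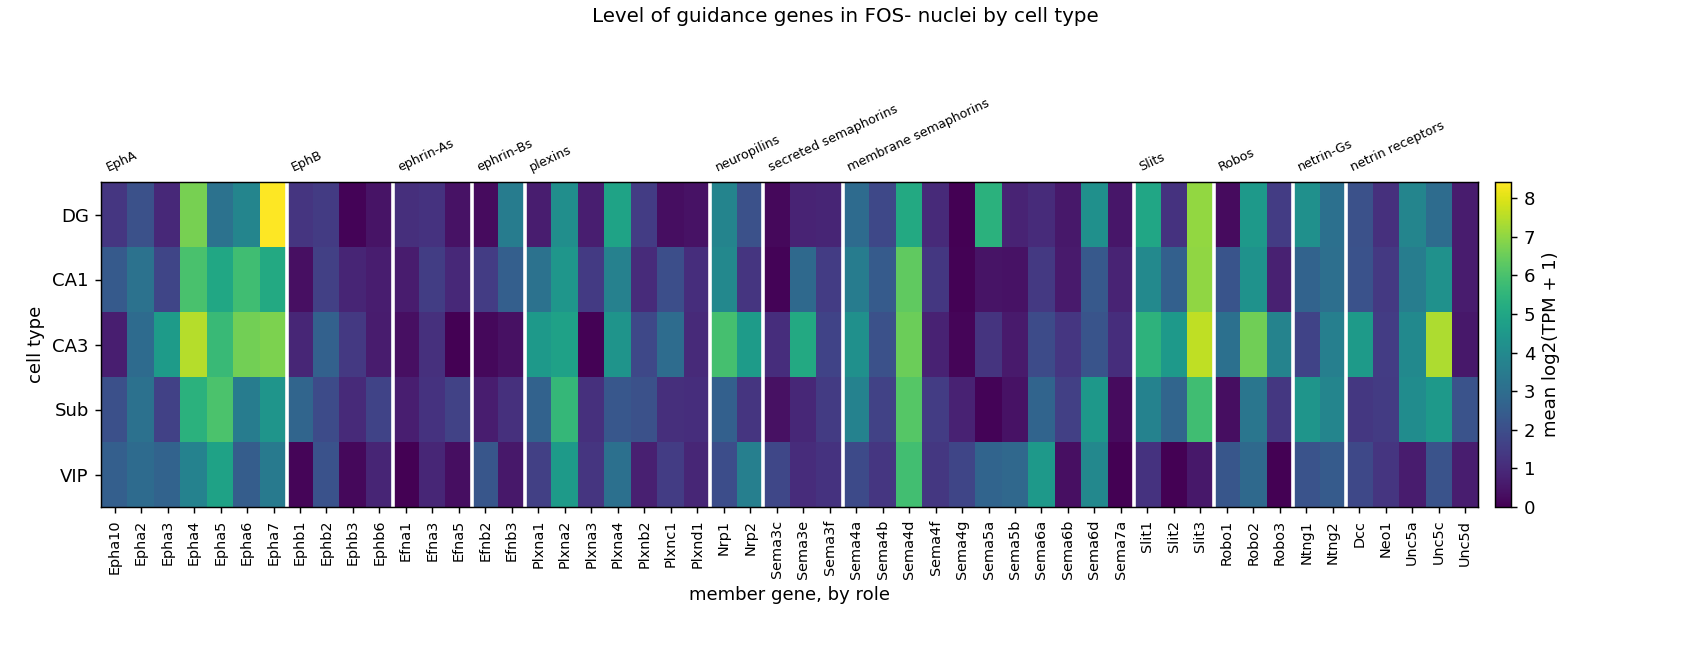
Mean log2(TPM+1) over mice in FOS− nuclei of 5 cell types (rows) for the 52 members shown (columns, grouped by role), with colour running from 0 to the highest mean. Epha7 in DG (8.42), Slit3 in CA3 (7.63), Epha4 in CA3 (7.48) and Unc5c in CA3 (7.38) are the brightest cells, and the Slit2 and Slit3 columns are dark in VIP.

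Slit3 and Slit2 were lower in VIP interneurons than in DG and CA1 nuclei, and VIP was not tested against CA3 or Sub. Slit3, on chromosome 11 (35121224 to 35708507, plus strand), had levels of 6.00, 7.35 and 7.78 in the 3 DG mice, 5.35 to 8.14 in the 6 CA1 mice (median 7.18) and 7.02, 7.76 and 8.11 in CA3, but 0.00, 0.00, 0.45, 0.69 and 1.61 in the 5 VIP mice. No VIP mouse reached the lowest mouse of DG, CA1, CA3 or Sub. In counts, 70 reads were assigned to Slit3 in 38 VIP nuclei, compared with 21718 in 50 DG nuclei and 11773 in 40 CA1 nuclei. The log2 fold change was −7.84 ± 1.05 (SE) for VIP against DG (adjusted p = 0.000586, edgeR quasi-likelihood test) and −7.24 ± 1.00 for VIP against CA1 (adjusted p = 0.000875).

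Slit2, on chromosome 5 (47983138 to 48307733, plus strand), was likewise lower in VIP. Its levels were 0.00 in 4 VIP mice and 0.14 in the fifth, against 0.82, 1.29 and 1.57 in DG, 2.34, 4.76 and 6.58 in CA3 and 0.05 to 5.77 in CA1, whose lowest mouse overlapped VIP. The 38 VIP nuclei held 1 Slit2 count in all, and the DG and CA1 nuclei 2045 and 3981. Per total count this was a ratio of 0.00142 to DG (95% exact interval 3.58e-05 to 0.0079) and of 0.000506 to CA1 (1.28e-05 to 0.00282), intervals that cover counting error only. The fit called the difference in both comparisons (adjusted p = 0.0309 against DG and 0.0259 against CA1), and its fold changes of −9.75 and −9.83 depend on the prior count because VIP was nearly at 0. Slit1 was at 4.80, 4.99 and 5.19 in DG and at 0.00, 0.00, 1.60, 1.88 and 2.67 in VIP, so the mice did not overlap, but the log2 fold change of −3.01 ± 1.40 did not pass (p = 0.0449, adjusted p = 0.403).

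Leaving out a mouse removed all its sums. With 1 h mouse 2 went a CA1 sum of 13 nuclei, and with HC mouse 4 a VIP sum of 15 nuclei. Such fits do not isolate the 2 sums that stood apart. The Slit3 calls held without 1 h mouse 2, whose VIP sum had few VIP markers. They were −7.70 against DG (adjusted p = 0.00433) and −6.77 against CA1 (adjusted p = 0.00964). They also held without HC mouse 4, at −10.22 and −9.63. The Slit2 calls were lost without 1 h mouse 2 (adjusted p = 0.117 in each comparison) and without HC mouse 4 (0.0888 against DG and 0.0741 against CA1), with fold changes of −9.30 or below. Without the CA1 sum of FOS− nuclei that was higher in CA3 markers, both genes kept their calls against CA1 (adjusted p = 0.00161 for Slit3 and 0.0451 for Slit2).

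Among the Slit receptors, Robo2 was the highest on average and lay at 6.61 ± 1.07 (SD, n = 3) in CA3, 4.52 ± 0.42 in DG (n = 3), 4.29 ± 1.72 in CA1 (n = 6), 3.31 ± 1.00 in Sub (n = 5) and 2.89 ± 0.88 in VIP (n = 5). Neighbouring types in that order overlapped in their mice, except CA3 and DG, whose ranges were 5.56 to 7.70 and 4.26 to 5.01. Robo3 reached 2.71, 3.17 and 5.43 in CA3 and stayed at 0.03 or below in VIP. Its difference between VIP and DG did not pass (adjusted p = 0.0991). Robo1 ranged from 2.48 to 3.44 in CA3 and from 0.00 to 0.45 in DG. CA3 was not tested against DG, and the share of all genes whose CA3 and DG mice do not overlap was not counted. No member of the Robo family passed the test in any of the 5 comparisons between cell types.

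The class 5 semaphorins, transmembrane proteins with thrombospondin repeats, showed different patterns. Sema5a, on chromosome 15 (32244810 to 32696341, plus strand), lay at 5.24, 5.42 and 5.48 in the DG mice and at 0.05 to 1.57 in the 6 CA1 mice (median 0.17). The DG and CA1 mice did not overlap, and the log2 fold change for CA1 against DG was −6.91 ± 1.39 (adjusted p = 0.0499). Sema5a levels were 0.00 to 0.24 in Sub, 0.71, 1.05 and 2.09 in CA3 and 1.01, 1.54, 2.31, 2.89 and 5.83 in VIP, where the highest value came from the 2 nuclei of 1 h mouse 2. VIP exceeded CA1 by 5.61 ± 1.36 without passing (adjusted p = 0.0719). The call in CA1 against DG sat at the threshold and was lost on leaving out any of 8 of the 9 mice, with fold changes of −7.09 to −6.62 and the same direction; it held without HC mouse 4 (adjusted p = 0.0147). It was also lost without the CA1 sum higher in CA3 markers, at −6.59 (adjusted p = 0.123).

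Sema5b, on chromosome 16 (35541145 to 35664732, plus strand), was higher in VIP than in CA1. The VIP mice were at 0.77, 2.53, 3.14, 3.53 and 4.32 and the CA1 mice at 0.20 to 0.78 (median 0.33), so the ranges overlapped only at the 2-nucleus sum of 1 h mouse 2. The log2 fold change was 6.82 ± 1.21 (adjusted p = 0.00847). It was 7.23 without 1 h mouse 2 (adjusted p = 0.0134) 6.94 without HC mouse 4 (adjusted p = 0.0497) and 6.63 without the CA1 sum higher in CA3 markers (adjusted p = 0.0315). Sema6a, a transmembrane semaphorin that binds plexin-As, lay at 3.13 to 6.21 in VIP, 0.74 to 1.39 in DG and 0.00 to 2.46 in CA1. VIP did not overlap with either, and the log2 fold change of 4.92 ± 1.13 against CA1 fell just short of the threshold (adjusted p = 0.0533).

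**Figure D2:**
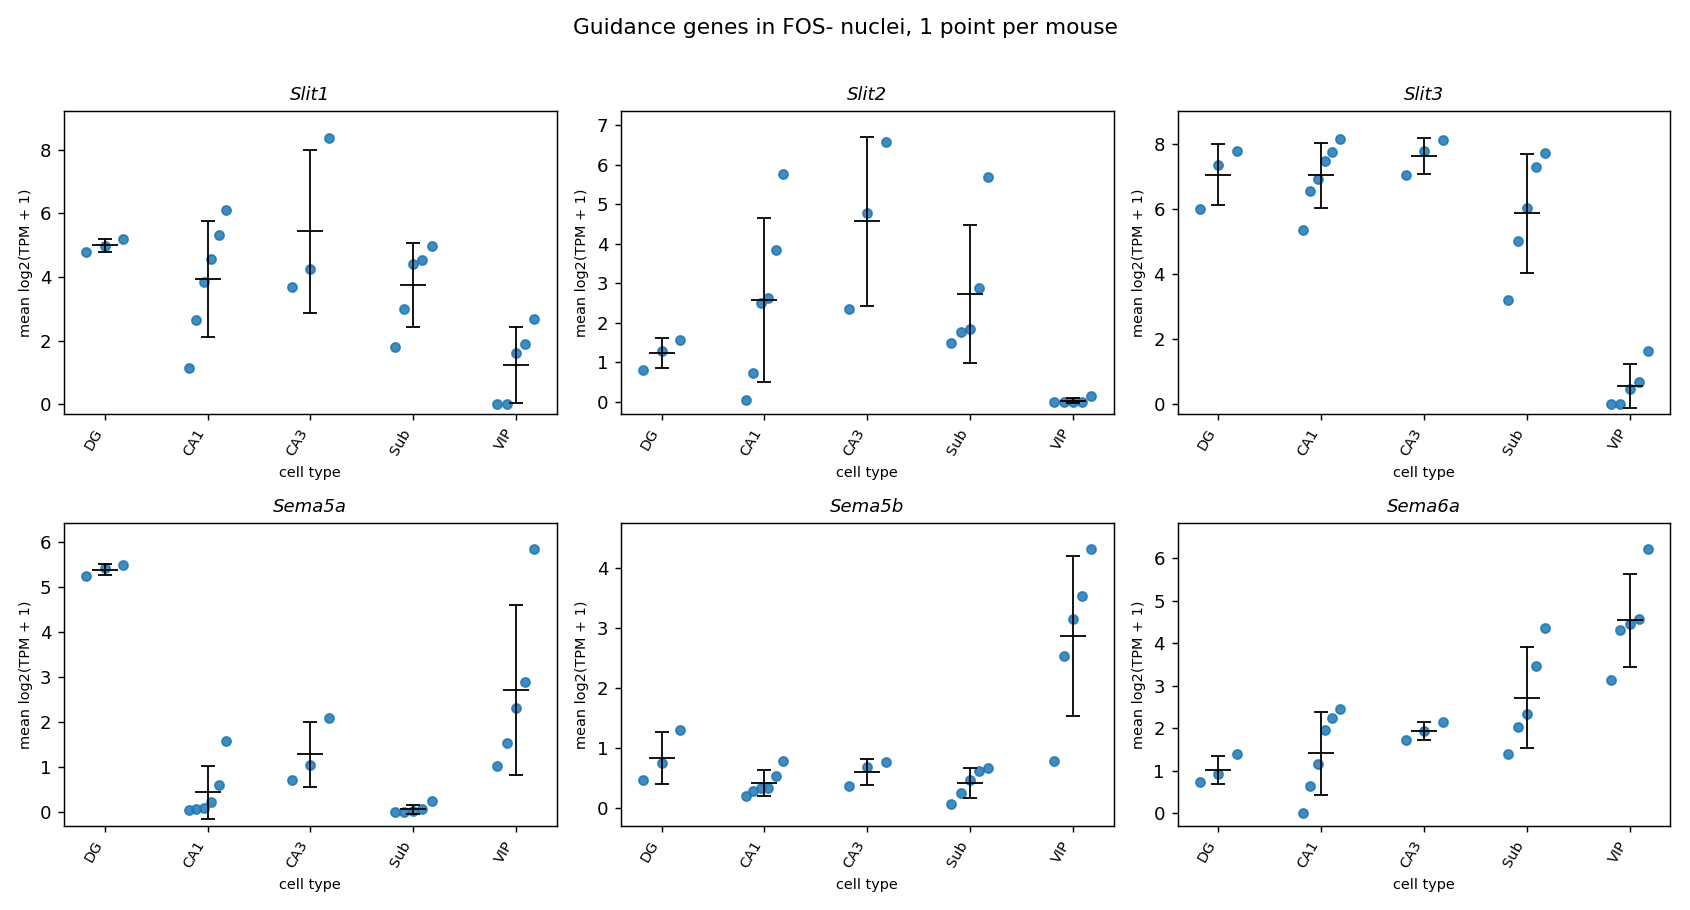
Mean log2(TPM+1) per mouse (points) with the mean and SD over mice (bars) for Slit1, Slit2, Slit3, Sema5a, Sema5b and Sema6a in FOS− nuclei of 5 cell types. Every VIP mouse is at or below 1.61 for Slit3, the 3 DG mice lie between 5.24 and 5.48 for Sema5a, and the VIP mean for Sema6a, 4.54, is the highest of the 5 types.

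Sema4d, which signals through Plxnb1, had means that ran from 5.11 ± 0.70 in DG (n = 3) through 5.86 ± 0.29 in VIP (n = 5) and 6.36 ± 0.38 in CA1 (n = 6) to 6.52 ± 0.83 in CA3 (n = 3), and the mice of neighbouring types overlapped. The CA1 mice, at 5.89 to 6.82, lay above the DG mice, at 4.30 to 5.51, but the test on counts gave an adjusted p of 1. Its receptor Plxnb1 stayed below 1 in every cell type. Of the secreted class 3 semaphorins, Sema3e had the highest average and reached 5.12 ± 0.78 in CA3 (n = 3) and 2.87 ± 1.36 in CA1 (n = 6), with 0.85 ± 0.74 in DG (n = 3). Its receptor Plxnd1 was at 1.11 ± 0.56 in CA1 and 0.99 ± 0.86 in CA3.

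Among the plexins, Plxna2 and Plxna4 were the most abundant on average. Plxna2 lay between 4.15 ± 1.85 in DG and 5.60 ± 0.82 in Sub, and all 5 types overlapped with one another. Plxna4 lay at 4.87 ± 0.12 in DG, 4.35 ± 1.32 in CA3, 3.70 ± 1.37 in CA1, 3.12 ± 1.95 in VIP and 2.28 ± 1.36 in Sub. Plxna1 was at 0.41 to 1.04 in the DG mice and 3.60 to 5.22 in the CA3 mice, types that were not tested against each other. The neuropilins, which bind class 3 semaphorins, were both highest in CA3, with Nrp1 at 5.94 ± 0.90 and Nrp2 at 4.62 ± 0.70 (n = 3 each). The next highest Nrp2 mean among the 5 types was in VIP, at 3.62 ± 0.64 (n = 5), with mice at 2.64 to 4.30 that overlapped the 4.00, 4.48 and 5.38 of CA3. Nrp2 in CA3 exceeded CA1 by 2.53 ± 1.41 on the log2 scale, which did not pass (adjusted p = 0.814).

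Epha7 and Epha4 had the highest means of all receptors in DG. Epha7, on chromosome 4 (28813131 to 28967499, plus strand), had its highest level in DG, with mice at 7.88, 8.38 and 9.00, followed by CA3 at 5.84 to 8.23, CA1 at 1.59 to 7.40, Sub at 1.54 to 6.87 and VIP at 0.97 to 5.59. The DG mice lay above all CA1, Sub and VIP mice but overlapped CA3. Epha4, the EphA receptor that also binds ephrin-Bs, was at 7.48 ± 0.98 in CA3, 6.69 ± 0.23 in DG, 6.01 ± 2.12 in CA1, 5.39 ± 1.29 in Sub and 3.74 ± 2.66 in VIP, with an overlap of mice between each neighbouring pair. Epha5 and Epha6 reached 6.02 ± 0.90 in Sub and 6.62 ± 1.79 in CA3. No EphA member passed the test between cell types.

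EphB receptors and ephrins were at lower levels. Ephb1 lay at 1.41 to 4.21 in the 5 Sub mice and at 0.00 to 1.22 in the 6 CA1 mice, without overlap, and the log2 fold change of 5.35 ± 1.61 did not pass (p = 0.00363, adjusted p = 0.343). Efnb3 was highest in DG of the 5 types, at 3.55 ± 1.11 (n = 3), and at 0.38 ± 0.66 in CA3 (n = 3). Efna5 was at 0.00 in all 3 CA3 mice and reached 3.73 in a Sub mouse and 3.69 on average in the 2 Ivy mice (3.04 and 4.33). None of these passed.

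In the netrin pathway, Ntn1 and Ntn4 had means below 1 in each of DG, CA1, CA3, Sub and VIP, as did the receptor Unc5b. Unc5c was at 7.38 ± 0.66 in CA3 (mice at 6.62 to 7.80), 4.53 ± 2.27 in Sub, 4.25 ± 1.82 in CA1, 2.97 ± 0.44 in DG and 2.15 ± 1.07 in VIP, and at 8.37 and 8.41 in the 2 Ivy mice. The highest Sub mouse, at 7.92, overlapped CA3. Unc5a was at 3.15 to 4.68 in DG and at 0.00 to 2.44 in VIP, and its difference of −3.62 ± 1.40 did not pass (adjusted p = 0.295). Ntng1 had levels of 3.44, 4.53 and 4.69 in DG and 9.38 in the 1 mouse with Th nuclei. In VIP, Ntng1 was at 9.24 in 1 h mouse 2 and at 0.80 or below in each of the other 4 mice.

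Across the 5 comparisons, 63 members passed the filter on low counts. The numbers called at an adjusted p of 0.05 were 1 for CA1 against DG (0.174% of all 16664 genes tested were called), 2 for VIP against DG (0.534%), 3 for VIP against CA1 (0.57%), 0 for Sub against CA1 (0.018%) and 0 for CA3 against CA1 (0% of genes). At an unadjusted p of 0.05, the numbers were 6 (8.16% of genes), 16 (12.0%), 17 (12.6%), 8 (10.2%) and 5 (6.55%). DESeq2 called 4 (2.59% of genes), 12 (5.44%), 11 (5.89%), 4 (3.43%) and 4 (2.42%) members. The shares of members at an unadjusted p of 0.05 were thus 25.4% for VIP against DG and 27.0% for VIP against CA1, and no test was made of the list. CA1 mice lay wholly above DG mice in 4.43% of genes (7.94% of members) and below in 1.73% (3.17%). VIP mice lay above DG mice in 4.21% (6.35%) and below in 5.48% (15.9%). VIP mice lay above CA1 mice in 0.576% (1.59%) and below in 1.75% (3.17%). Sub mice lay above CA1 mice in 0.378% (1.59%). CA3 mice lay above CA1 mice in 2.81% (7.94%) and below in 0.636% (1.59%). The median log2 fold change of the members was −0.22 for CA1 against DG (0.05 over all genes), −0.18 for VIP against DG (−0.06) and −0.33 for VIP against CA1 (−0.10). On the sums without DG, the 3 calls in VIP against CA1 were also made without a block and became 0 when the mouse was entered as a replicate block, with adjusted p-values of 0.218 (Slit3), 0.394 (Slit2) and 0.489 (Sema5b) and the same directions. Cell type labels were assigned by the authors from these transcripts, and with sort gates in place of the labels no member was called in CA1 against DG or in either VIP comparison.

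To follow the response to the NE in DG neurons, FOS+ and FOS− nuclei at 1 h were set against each other and against HC nuclei. Epha7 was the one member called. Its level was 8.38 and 9.00 in the HC mice, 7.88 in FOS− nuclei of the 1 h mouse and 10.40 in FOS+ nuclei of that mouse, which was above every HC and FOS− value, and all 26 FOS+ nuclei held Epha7 counts. The log2 fold change for FOS+ against HC was 1.84 ± 0.35 (adjusted p = 0.02). Against FOS− nuclei of the same mouse the difference was 2.07 ± 0.43 (p = 0.000122), which did not pass after adjustment (adjusted p = 0.125), and FOS− nuclei differed from HC by −0.23 ± 0.36. Because both 1 h groups were taken from 1 mouse, the test assumes that this mouse varies like mice of the other DG groups. Without HC mouse 7, which gave 5 nuclei, the call for FOS+ against HC was lost at a fold change of 1.74 (adjusted p = 0.273).

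Epha10, an Eph receptor without kinase activity, and the neuropilins had their highest values of these groups in FOS+ nuclei, but none passed the test. Epha10 was at 0.77 and 1.74 in HC, 1.48 in FOS− and 5.94 in FOS+ nuclei. Nrp1 was at 2.89 and 4.29 in HC, 4.19 in FOS− and 7.86 in FOS+ nuclei. Nrp2 was at 0.53 and 2.74 in HC, 3.01 in FOS− and 5.45 in FOS+ nuclei. FOS+ nuclei stood above the HC mice and the FOS− nuclei for each of the 3 genes. Against the HC mice alone, FOS+ nuclei stood above both in 24.4% of all genes tested and 26.0% of members. The log2 fold changes against HC were 2.92 ± 1.16 (adjusted p = 0.673), 2.28 ± 0.70 (adjusted p = 0.39) and 3.06 ± 1.04 (adjusted p = 0.487), and those against FOS− nuclei were 3.86 ± 1.55, 2.44 ± 0.89 and 2.54 ± 1.31. The study placed Epha7, Epha10, Nrp1 and Nrp2 in its gene group for 1 h, 4 h and 5 h, a list chosen on these nuclei, so these levels are not independent evidence of that direction.

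Other members were lower in FOS+ nuclei without passing. FOS+ nuclei lay below both HC mice in 24.0% of all genes tested and 28.8% of members. Unc5a, a repulsive netrin receptor, was at 1.71 in FOS+ nuclei, 3.15 in FOS− nuclei and 3.63 and 4.68 in HC, and FOS+ nuclei differed from HC by −2.21 ± 0.76 (adjusted p = 0.504). Sema5a was at 5.24 and 5.48 in HC, 5.42 in FOS− and 3.06 in FOS+ nuclei. Robo2 was at 4.26 and 4.29 in HC, 5.01 in FOS− and 1.80 in FOS+ nuclei. Efnb3 was at 2.28 and 4.01 in HC, 4.36 in FOS− and 1.18 in FOS+ nuclei. Slit3 was at 6.00 and 7.35 in HC, 7.78 in FOS− and 8.07 in FOS+ nuclei, and these values lay close together. The 6 DG markers also added up to less in FOS+ nuclei, at 18.03, than in HC, at 27.43 and 31.89, and in FOS− nuclei, at 27.46, and their part in these differences was not tested.

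Of 73 members tested in DG, 0 were called for FOS+ against FOS− (0.0451% of 24405 genes), 0 for FOS− against HC (0.0041%) and 1 for FOS+ against HC (0.27%). At an unadjusted p of 0.05 the counts were 5 (3.02% of genes), 2 (2.8%) and 7 (5.9%), and DESeq2 called 3 (4.33%), 2 (2.52%) and 4 (7.28%). Sema4d was 1 of the 2 in FOS− against HC, with a fold change of 3.08 ± 0.82 (adjusted p = 1), yet its level per nucleus was 5.51 in FOS− nuclei and 4.30 and 5.51 in HC.

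**Figure D3:**
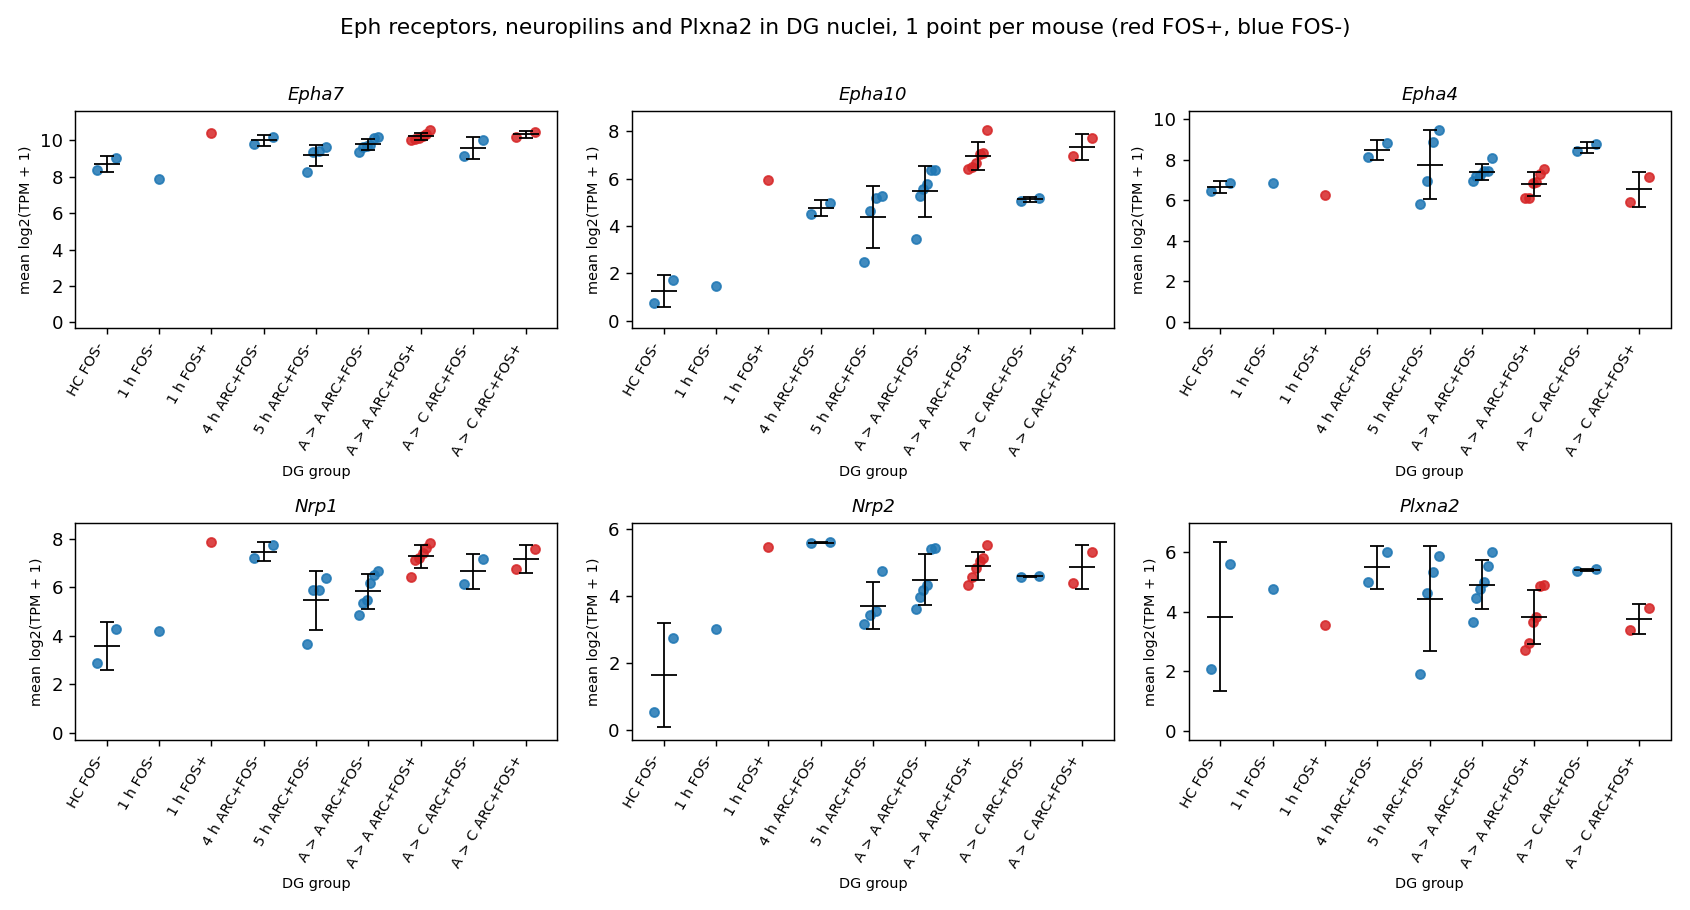
Mean log2(TPM+1) per mouse (points, red for FOS+ and blue for FOS− nuclei) with the mean and SD over mice where a group had more than 1 (bars) for 6 receptors in the 9 DG groups. Epha7 lies at 10.40 in 1 h FOS+ nuclei against 7.88 to 9.00 in HC and 1 h FOS− nuclei, and the Epha10 values of all FOS+ groups are at 5.94 or above.

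At 4 h after the NE, ARC+FOS− nuclei again had more Epha7 than HC nuclei. The 4 h mice were at 9.78 and 10.19 and did not overlap with HC, and the log2 fold change was 1.60 ± 0.30 (adjusted p = 0.0213). This call was lost on leaving out any of the 4 mice, with fold changes of 1.43 to 1.75 and adjusted p-values of 0.054 to 0.374. At 5 h the mice were at 8.28, 9.37, 9.39 and 9.60, of which the lowest overlapped with HC, and the difference of 0.94 ± 0.27 did not pass (adjusted p = 0.206). Comparisons of HC with 4 h and 5 h also cross the 2 experiments and their gates (ARC+ without NEUN against NEUN+), so time, gate and experiment cannot be told apart. The 6 DG markers added up to 16.93 to 18.34 at 4 h and 11.91 to 17.90 at 5 h, below the HC mice, and their part in these differences was not tested. The 5 h group kept 59 of 96 nuclei, with a median total of 426841 counts. The 4 h group kept 68 of 74, with a median of 2469299. The part of depth in these differences was not tested either.

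Epha4 was at 8.11 and 8.82 at 4 h, against 6.43 and 6.84 in HC and 6.82 and 6.25 in the FOS− and FOS+ nuclei at 1 h. The 4 h mice lay above all of these, and the difference from HC was 1.55 ± 0.37 (adjusted p = 0.12). At 5 h the mice were spread from 5.79 to 9.43 and overlapped with HC (1.02 ± 0.33, adjusted p = 0.288). The neuropilins were above HC in both 4 h mice, with Nrp1 at 7.19 and 7.74 (2.43 ± 0.63, adjusted p = 0.194) and Nrp2 at 5.58 and 5.61 (3.50 ± 0.97, adjusted p = 0.274). At 5 h, Nrp1 was at 3.67, 5.87, 5.89 and 6.39 and Nrp2 at 3.15, 3.42, 3.55 and 4.73. Epha10 was at 4.51 and 5.00 at 4 h and at 2.49 to 5.29 at 5 h, above HC in all 6 mice. The 4 h mice lay above both HC mice in 15.4% of all genes tested and 16.4% of members. For the 5 h mice these shares were 3.51% and 5.48%. Plxna2 was at 5.00 and 6.02 at 4 h, within reach of the higher HC mouse at 5.62.

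Several ligands and the netrin receptor Dcc had lower levels at 4 h and 5 h than in HC, again without passing. Slit3 was at 2.87 and 4.29 at 4 h and at 0.63, 0.76, 2.56 and 4.60 at 5 h, below both HC mice, and the differences were −1.88 ± 1.02 and −2.64 ± 0.83 (p = 0.00478, adjusted p = 0.275 at 5 h). Sema5a was at 2.28 and 4.04 at 4 h and at 0.00 to 3.72 at 5 h, against 5.24 and 5.48 in HC. Ntng1, a presynaptic adhesion molecule of the netrin-G family, was at 0.60 and 1.08 at 4 h and 0.13 to 2.34 at 5 h, against 4.53 and 4.69 in HC. Dcc was at 0.34 and 0.46 at 4 h and 0.00 to 0.55 at 5 h, against 1.57 and 2.42 in HC, with a difference of −5.27 ± 1.73 at 5 h (adjusted p = 0.294). In each of these genes the 4 h and 5 h mice lay below both HC mice. This held at 4 h in 15.8% of all genes tested and 17.8% of members. At 5 h it held in 11.3% of genes and 13.7% of members.

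For 4 h against HC, 1 member was called (0.246% of genes), with 8 at an unadjusted p of 0.05 (5.58% of genes) and 5 by DESeq2 (4.14%). For 5 h against HC, 0 were called (0.262%), with 12 at an unadjusted p of 0.05 (10.3%) and 7 by DESeq2 (8.14%). Leaving out HC mouse 6 brought Nrp2 past the threshold in FOS− against HC, FOS+ against HC and 5 h against HC, and HC mouse 7 was then the sole HC mouse. Leaving out HC mouse 7 brought Epha10 and Unc5b, a low-level netrin receptor, past it at 5 h. The median fold change at 4 h was 0.26 over members and 0.23 over all genes.

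**Figure D4:**
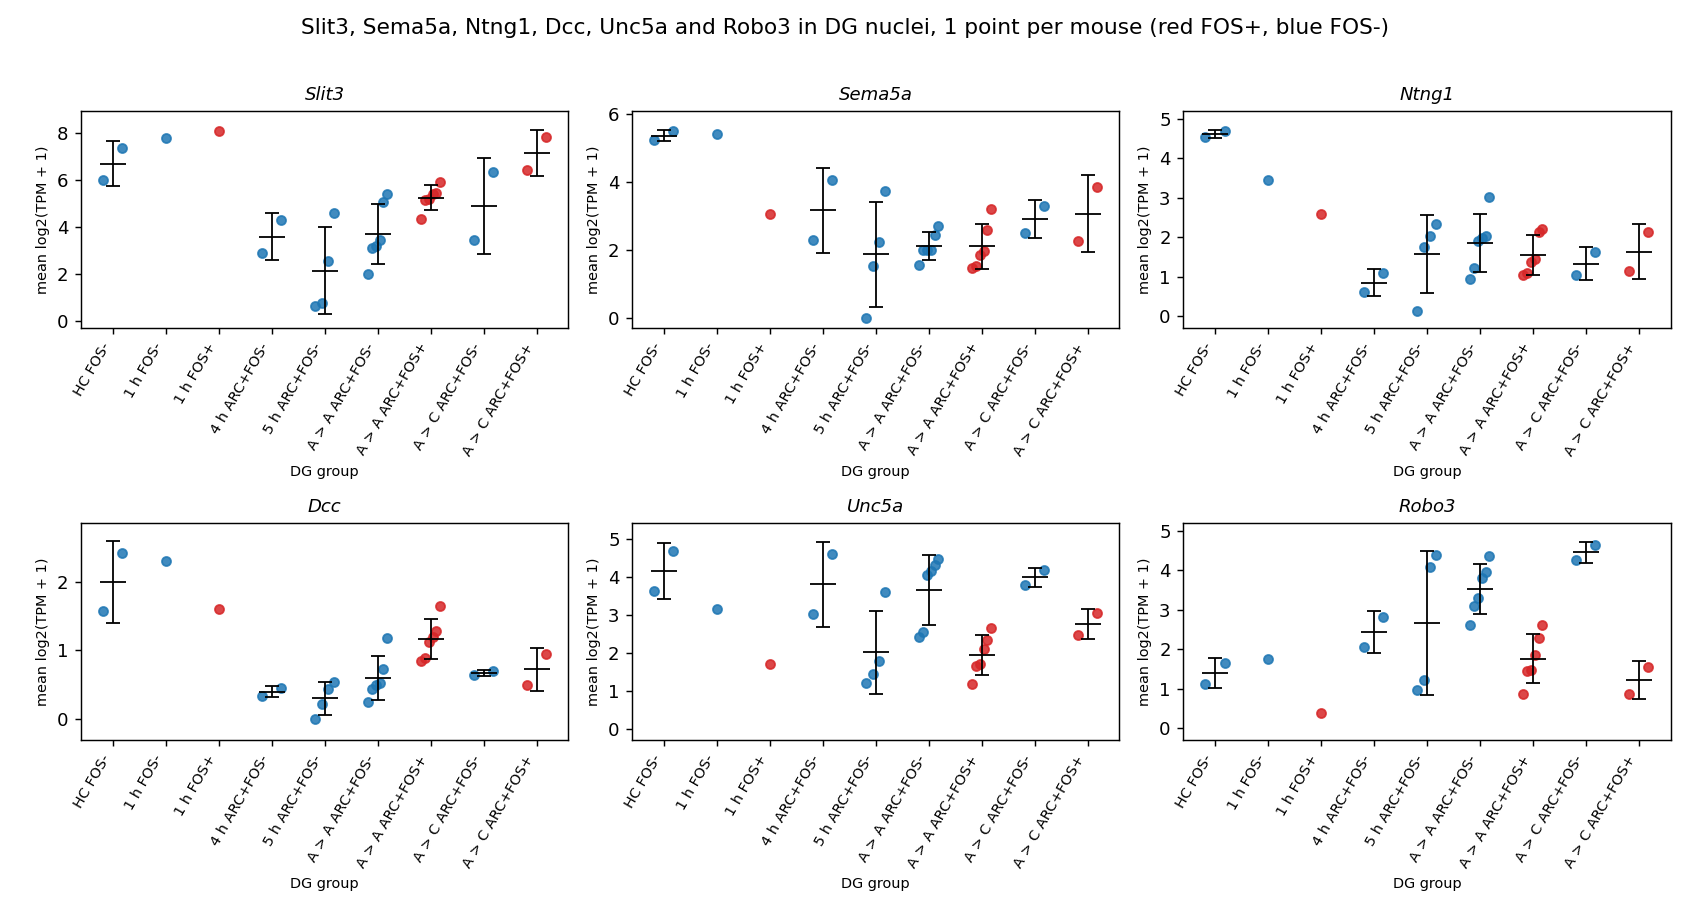
Mean log2(TPM+1) per mouse (points, red for FOS+ and blue for FOS− nuclei) with the mean and SD over mice where a group had more than 1 (bars) for Slit3, Sema5a, Ntng1, Dcc, Unc5a and Robo3 in the 9 DG groups. Ntng1 is at 4.53 and 4.69 in HC and at 3.02 or below in every mouse of the second experiment, and Robo3 in the re-exposure groups is at 2.61 or below in FOS+ mice and at 2.61 or above in FOS− mice.

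After a second exposure to the same environment (A > A), FOS+ and FOS− nuclei were compared in 6 mice each, 4 of which supplied both groups. Epha4 and Unc5a were lower in FOS+ nuclei in all 4 shared mice. Epha4 was at 6.10 to 7.54 in FOS+ mice (median 6.88) and 6.92 to 8.07 in FOS− mice (median 7.33), and the within-mouse difference was −0.75 ± 0.26 (SD, n = 4) on the log2(TPM+1) scale. Unc5a was at 1.18 to 2.64 (median 1.90) and 2.42 to 4.47 (median 4.10), with a within-mouse difference of −1.97 ± 0.86. Robo3, an atypical Robo receptor, was at 0.87 to 2.61 (median 1.66) and 2.61 to 4.36 (median 3.54), with a within-mouse difference of −2.20 ± 0.93. The ranges of the FOS groups overlapped for Epha4 and Unc5a, and for Robo3 they met at 2.61. In counts, the log2 fold changes were −0.75 ± 0.21 (adjusted p = 0.24), −1.34 ± 0.33 (adjusted p = 0.182) and −1.39 ± 0.72 (p = 0.0681), so none passed.

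Sema6d, a transmembrane semaphorin, and Plxna2, a plexin that reads class 6 and class 3 semaphorins, were also lower in FOS+ nuclei of all 4 shared mice, by means of −2.53 ± 0.33 and −1.89 ± 1.20. Epha7 and Epha10 were higher in FOS+ nuclei of all 4, by 0.60 ± 0.25 and 1.06 ± 0.67, as were Slit3 (1.60 ± 0.87) and Dcc (0.58 ± 0.18). Epha10 lay at 6.41 to 8.06 in FOS+ mice (median 6.85) and 3.45 to 6.38 in FOS− mice (median 5.67), and these ranges did not overlap, although the count test gave 0.59 ± 0.56. FOS+ mice lay wholly above FOS− mice in 0.836% of all genes tested and 1.37% of members. Nrp1 was higher in 3 of the 4 (1.35 ± 1.32). With 4 shared mice these within-mouse values are given without a test. In the count test 0 members were called (0.041% of genes), with 11 at an unadjusted p of 0.05 (15.4% of genes) and 4 by DESeq2 (3.58%). The mouse as a replicate block gave 0 calls.

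After a second exposure to a different environment (A > C), the FOS+ and FOS− sums came from different mice collected on different dates, so the FOS gate and the date cannot be told apart. Epha4 was at 5.93 and 7.12 in FOS+ mice and 8.41 and 8.77 in FOS− mice, a difference of −1.36 ± 0.37 (adjusted p = 0.759). Robo3 was at 0.87 and 1.55 against 4.26 and 4.64 (−2.84 ± 1.31). Epha10 was at 6.96 and 7.73 against 5.07 and 5.21, and Epha7 at 10.18 and 10.45 against 9.16 and 10.01. The 2 FOS groups did not overlap in any of these 4 genes, and none passed. FOS+ mice lay wholly above FOS− mice in 11.0% of all genes tested and 15.1% of members. They lay wholly below in 23.6% of genes and 24.7% of members. The DG markers added up to 14.25 and 18.19 in FOS+ mice and 19.81 and 19.82 in FOS− mice.

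Members were called in 0 of these tests, with 0% of genes called for A > C. At an unadjusted p of 0.05, 6 members (4.46% of genes) were counted in A > C, and DESeq2 called 4 (4.63%). FOS+ nuclei of A > A and A > C were also compared directly, as were FOS− nuclei, again on different dates, and 0 members were called in either (0% of genes), with 5 (4.94%) and 2 (4.88%) at an unadjusted p of 0.05 and 4 (4.73%) and 2 (2.42%) by DESeq2. Slit1 was at 5.05 and 6.25 in A > C FOS+ mice and 1.17 to 4.99 in A > A FOS+ mice (median 3.49), without overlap. A > A FOS+ mice lay wholly below A > C FOS+ mice in 2.61% of all genes tested and 6.85% of members. Efna1, a ligand of EphA receptors, had 3 counts in the A > C FOS+ sums and 8273 in the A > A FOS+ sums, with levels of 0.00 and 0.11 against 0.08 to 1.51. The A > C sums held 48 nuclei of 2 mice, with a median total of 742968.5 counts per nucleus. The A > A sums held 130 nuclei of 6 mice, with a median of 1667494.5. The FOS difference of Efna1 was not shown to differ between A > A and A > C (adjusted p = 1). In that test of the difference itself, 0 members were called (0% of genes), with 3 at an unadjusted p of 0.05 (4.38%) and 2 by DESeq2 (3.17%).

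In CA1, VIP, Sub and CA3 nuclei, no member passed for FOS+ against FOS− at 1 h (0% of genes called in each). The Epha7 fold changes were 0.08 ± 1.24 in CA1 (3 mice a group) and 0.31 ± 1.26 in VIP (2 FOS+ and 3 FOS− mice), and the direction in both turned with other settings. Without the 3 CA1 sums higher in CA3 markers, the CA1 value was −0.52, and mouse 2 was then the sole CA1 FOS+ mouse. The errors of the CA1 and VIP fold changes, taken to 2 SE, included the 2.07 of DG. Whether the FOS difference itself differed between DG and CA1, or DG and VIP, was tested, and 0 members were called in each case (0.00457% of genes), with 3 (1.73%) and 1 (2.5%) at an unadjusted p of 0.05 and 0 by DESeq2 in both (1.55% and 2.26%). At an unadjusted p of 0.05, the numbers were 2 members in CA1 (4.34% of genes), 3 in VIP (5.67%), 5 in Sub (7.63%) and 3 in CA3 (2.1%). DESeq2 called 1 (1.56%), 1 (2.91%), 2 (3.41%) and 2 (0.975%).

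Members singled out by non-overlapping mice in these types were mostly at low levels. In CA3, FOS+ mice lay wholly above FOS− mice in 13.7% of all genes tested (16.9% of members) and below in 12.8% (18.5%). In CA1 these shares were 5.06% (3.64%) and 4.92% (5.45%). CA1 FOS− mice at 1 h lay above HC mice in 4.14% of genes (3.64% of members). Sema5b was at 0.47 to 1.43 in CA1 FOS+ mice and 0.20 to 0.34 in FOS− mice, a fold change of 4.29 ± 1.30 (p = 0.00958, adjusted p = 1). This fold change was 0.61 without the 3 CA1 sums higher in CA3 markers, which left mouse 2 as the sole CA1 FOS+ mouse. Sema6a was at 3.34 and 3.44 in CA3 FOS+ mice and 1.72 and 1.93 in FOS− mice (4.57 ± 1.80). Plxna3 was at 1.56 and 3.60 in CA3 FOS+ mice, with 0 counts in the FOS− mice. Plxna2 in Sub was at 2.66 to 5.48 in FOS+ mice and 4.79 to 6.54 in FOS− mice, which overlapped (−2.49 ± 0.70, adjusted p = 0.579). Slit2 in CA1 was at 2.62 to 5.77 in FOS− nuclei at 1 h and lower in each of the 3 HC mice (4.88 ± 1.73, adjusted p = 0.94), and 0 members were called for FOS− against HC in CA1 or VIP (0% of genes), with 2 (5.03%) and 1 (4.97%) at an unadjusted p of 0.05 and 0 by DESeq2 in each (1.8% and 2.63%).

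The pathway was also read through 70 listed partners, which are co-receptors, adhesion partners and intracellular effectors such as collapsin response mediators. Of 66 tested between cell types, 2 were called, both lower in VIP than in DG and in CA1. Of all genes, 0.534% were called in VIP against DG and 0.57% in VIP against CA1. They were Kalrn, a guanine nucleotide exchange factor of dendritic spines, and Mical2, an actin-oxidizing enzyme downstream of plexins. The calls of Kalrn and Mical2 include the VIP sum of 1 h mouse 2 and the sums of HC mouse 4, and are not given without them. No partner was called in the other comparisons. At an unadjusted p of 0.05, the partners counted were 14 (21.2%, against 12.0% of all genes) in VIP against DG, 14 (21.2%, against 12.6%) in VIP against CA1, 10 (14.3%, against 15.4%) in A > A, 8 (11.4%, against 10.3%) at 5 h against HC and 7 (10.0%, against 5.9%) in DG 1 h FOS+ against HC. The others held 0 to 6 each (0% to 9.09%, against 1.73% to 10.2% of all genes). Among these, the share was above that of all genes in A > C FOS+ against FOS− (8.57% against 4.46%) and the FOS difference of DG against CA1 (5.88% against 1.73%). It was below in Sub against CA1 (6.06% against 10.2%) and DG 1 h FOS− against HC (0% against 2.8%).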

How the data were processed

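RNA of 912 single hippocampal nuclei was read with SmartSeq2. Reads had been trimmed by the authors (Solexa-QA++) and assigned to genes by RSEM with Bowtie on mm10 and the Ensembl annotation, whose release is not given in the sources used here. The authors deposited RSEM expected counts for 42802 genes and log2(TPM+1) values for 40221 genes, in 2 tables each. The counts were whole numbers, and the 30 and 23 genes with missing values included no member.

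Following the study, a nucleus needed at least 100000 aligned reads and at least 4000 genes above a log2(TPM+1) of 1, and FOS− nuclei from HC or 1 h mice were dropped where Arc exceeded 2.5. Counts were summed per mouse (exposure and mouse number) and group, with at least 2 nuclei a sum, and no 2 sums were identical. Sums were compared with the quasi-likelihood test of edgeR 4.0.16 in R 4.3.3 (TMM, filterByExpr, Benjamini-Hochberg over all genes tested, threshold 0.05), in 1 fit for cell types (exposure as covariate), 1 for all DG groups, 1 for CA1, 1 for VIP, 1 for Sub and CA3, and 1 over DG, CA1 and VIP for differences of FOS differences. The standard error is the fold change divided by the root of F. Levels are means of the deposited log2(TPM+1) per mouse, described with pandas 2.3.3 and scipy 1.17.1 in Python 3.11.15 and drawn with matplotlib 3.10.9. Alternatives included DESeq2 1.42.0, its size factors, limma 3.58.1, other filters, another definition of a mouse, the mouse as a block and leaving out each mouse.

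The common dispersion was 2.19 between sums of the cell type fit and 1.95 in DG, which is the spread that limits the precision. The p-values measure the spread between sums, with sums of the same mouse treated as independent in the main fits. In data simulated at the estimated dispersions the fits recovered few of the known changes, so a member that did not pass cannot be read as unchanged. FOS+ and FOS− sums of CA1, Sub and CA3 at 1 h came from the same mice by the labels. In VIP 2 mice and in A > A 4 mice supplied both groups. In mice with both, the deviations from group means correlated at 0.05 to 0.10 in CA1, VIP, Sub and CA3 and 0.25 to 0.27 in A > A.

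The members and lists were chosen with earlier results of these data known. Members were named where they passed the threshold, where the mice of a comparison did not overlap (up to 5 higher and 5 lower by fold change), where they were among the 2 highest of a role on average, or where the study had placed them in its time groups. Gene positions are from GENCODE vM21 and promoters from RefSeq, both on GRCm38.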

Additional observations from a re-analysis of the deposited data

Results flagged for a closer look

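Of 96 groups of values with 4 to 10 mice examined for a single distant mouse, 2 had one, and chance alone gives about 1 in 20. Efnb3, a transmembrane ephrin, was at 2.91 in mouse 23 of the 5 h DG group, while the other 3 of the 4 mice lay between 0.80 and 1.05. Mouse 23 gave 6 nuclei, with a glutamatergic marker sum of 9.07. Unc5c, a repulsive netrin receptor, was at 0.36 in mouse 26 of the A > A FOS+ group, while the other 5 of the 6 mice lay between 1.61 and 2.36. Neither gene was called in these groups, and no cause was tested.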

How the results depend on the processing

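Many groups held 2 or 3 mice and several sums held few nuclei, so fold changes that did not pass carry wide errors, and low members such as Slit2 in VIP rest on few counts. Of 251 recounts of called members under other settings, 198 stayed within 1.5 times, as did 98 of 119 that left out a mouse. Only 5 of the 23 comparisons had a called member in the main fits, and a count that stayed at 0 was taken as unchanged. These numbers therefore do not measure the stability of the calls. DESeq2 moved 19 of 23 counts, HC nuclei alone 3 of 5 and sort gates 3 of 3. Of 976 fold changes under other settings, 837 kept direction and side of the threshold, 35 lost and 96 gained a call, and 8 reversed. The cause of these changes was not tested.

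DESeq2 called more members than edgeR in most comparisons, and also more of all genes (0.975% to 8.14%): 4 in CA1 against DG, 12 in VIP against DG, 11 in VIP against CA1, 4 in Sub against CA1, 4 in CA3 against CA1, 3, 1, 1, 2 and 2 for FOS+ against FOS− in DG, CA1, VIP, Sub and CA3, 2 and 4 in DG for FOS− and FOS+ nuclei at 1 h against HC, 5 at 4 h, 7 at 5 h, 4 in A > A, 4 in A > C, 4 and 2 for A > A against A > C in FOS+ and FOS− nuclei, and 2 for the difference of their FOS differences. DESeq2 size factors in edgeR gave 0 in CA1 against DG, 0 in 1 h FOS+ against HC and 0 at 4 h. HC nuclei alone, and sort gates in place of labels, gave 0 in each of CA1 against DG, VIP against DG and VIP against CA1. Defining a mouse also by date gave 5 in VIP against CA1, 0 in 1 h FOS+ against HC and 0 at 4 h. Sums of at least 5 nuclei gave 2 in VIP against CA1 (Robo3 and Sema5a) and 2 in VIP against DG (Robo3 and Slit3), so Slit3 against CA1 was no longer called.

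With limma on log2(mean TPM+1) the counts were 2 in CA1 against DG, 6 in VIP against CA1, 1 in Sub against CA1, and in DG 1 for 1 h FOS+ against FOS−, 2 for 1 h FOS+ against HC, 3 at 4 h and 1 at 5 h. With limma on mean log2(TPM+1) they were 4 in VIP against DG, 1 in Sub against CA1, 2 in CA3 against CA1, and in DG 1, 3, 6 and 7 for the same comparisons and 2 in A > A, and without the filter 1 in CA3 against CA1 and 1, 3, 6 and 7 in DG. Over all 23 comparisons these 3 settings called 19, 31 and 24 members. Apart from DESeq2, the share of all genes called is not given for other settings or left-out mice. Those counts are therefore not results about the members.

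Leaving out a mouse gave 0 to 1 called members in CA1 against DG, 1 to 2 in VIP against DG, 1 to 3 in VIP against CA1, 0 to 1 in 1 h FOS− against HC, 1 to 2 in 1 h FOS+ against HC, 0 to 1 at 4 h and 0 to 2 at 5 h. Slit3 kept its calls without any mouse (adjusted p at most 0.00964), while Slit2 lost its call without 6 of 8 mice against DG (kept without 1 h mouse 3 and HC mouse 7) and 7 of 8 against CA1 (kept without HC mouse 3), and Sema5b lost its call without 1 h mouse 10 (0.066) and HC mouse 8 (0.0584). Over all alternatives the fold changes ran from −10.22 to −3.92 (VIP against DG) and −9.63 to −3.02 (VIP against CA1) for Slit3, −13.10 to −1.34 and −12.61 to −2.61 for Slit2, −10.83 to −4.43 for Sema5a, 2.48 to 7.23 for Sema5b, and 1.51 to 1.96 (1 h FOS+) and 1.30 to 1.75 (4 h) for Epha7.

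With the mouse as a replicate block on the sums without DG, VIP against CA1 had 0 called members, while the same sums without the block gave 3, an alternative chosen after seeing the data. The 6 FOS comparisons that could be paired also had 0 under the block, so the pairing changed no other call. Leaving out the 3 CA1 sums whose CA3 markers exceeded their CA1 markers left 1 h mouse 2 as the sole CA1 FOS+ mouse. The direction of Epha7 in CA1 FOS+ against FOS− turned under the block (−0.05), with FOS− nuclei kept whatever their Arc level (−0.05), under limma on log2(mean TPM+1) (−0.57), with sums of at least 5 nuclei (−0.22), without the 3 CA1 sums whose CA3 markers exceeded their CA1 markers (−0.52, also chosen after seeing the data, which left 0 called members in CA1 against DG) and without 1 h mouse 4 (−0.77; 0.79 without 1 h mouse 10), and in VIP without 1 h mouse 5 (−0.03; 1.17 without 1 h mouse 4). Slit3 in Sub against CA1 turned without 1 h mouse 2 (0.25), Robo3 in CA3 against CA1 without HC mouse 8 (−0.03; 2.64 without 1 h mouse 4) and with sums of at least 5 nuclei (−1.11), and the difference in FOS difference of Efna1 between A > A and A > C under limma on mean log2(TPM+1), with and without the filter (−0.37).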
